A study of Rattus norvegicus with 8 samples.

Results

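The region described here is the interval chr4:165000000-169500000 of the rat genome (build rn4), 4.5 Mb long, which was marked out as the broad neighborhood of the natural killer receptor complex. Its members are all 947 probes of a promoter tiling array whose positions fall inside these bounds, of 375449 distinct probes on the array, and all 947 were tested. Joining probes with gaps of at most 500 bp gave 81 runs, of 27740 on the array. Another 22873 probes in 1635 runs lay elsewhere on chromosome 4, and 22851 of these were tested. The files name probes only by position, and no rn4 annotation was used here, so the name of the region could not be checked against the data and probes and runs are given by coordinates. Runs are numbered 1 to 81 in order of position. The interval was chosen because it holds one of the large differences between the groups, so every comparison of the groups below is a description without a test.

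DNA came from the prefrontal cortex (PFC) of male Sprague-Dawley rats killed at PND62. The 4 control (Ctrl) rats, C180, C182, C184 and C185, were born to undisturbed dams. The 4 prenatally stressed (PNS) rats, C141, C142, C144 and C145, were born to dams restrained for 45 min at a time during late gestation. Per-rat values follow the order in which the rats are named here. Each rat had 1 array. On it the DNA immunoprecipitated with an antibody against 5-methylcytosine (bound, Cy5) was hybridized together with total sheared DNA (input, Cy3). The tissue is a mixture of cell types, so a change in methylation and a change in the share of a cell type cannot be told apart.

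In this method (MeDIP) a fragment enters the bound fraction only if it carries methylated cytosines, and the ratio of bound over input rises both with the methylation of the fragment and with its density of CpG sites. The natural killer receptor complex is a cluster of genes for lectin-like receptors by which natural killer cells read the surface of other cells. It holds the NKR-P1 receptors (Klrb genes) and their Clec2 ligands, the CD94 and NKG2 receptors (Klrd and Klrc genes), and the Ly49 receptors (Klra genes), which bind class I histocompatibility molecules and form a large family in the rat. In the RefSeq annotation of another assembly, GRCr8, the interval from Klrb1a to Klra2 on chromosome 4 lists 59 protein-coding genes, of which 33 have a Klr or Ly49 symbol and 11 a Clec2 symbol. Which run of probes lies at which of these genes was not analysed here.

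Depth has no counterpart on an array other than detection, meaning a spot well above its background. Over all probe spots the detected share was 61.0 to 72.9% for input and 43.6 to 67.1% for bound. The log2 ratios of C180, C182 and C141 had an SD of 0.62 to 0.71 before normalization, against 0.99 to 1.23 on the other 5 arrays. Each of 4 slides held a Ctrl rat at position 1 and a PNS rat at position 2, so position and group cannot be told apart. Where a spot was not distinguishable from background, the scanner software had replaced its signal by a floor. On C141, C144 and C145, all PNS, the floor was 1 constant per channel. On the other 5 arrays it varied over the surface, and only for these 5 do the file headers record a nonzero multiplicative detrending fit in at least 1 channel.

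The probes of the interval formed short, widely spaced islands. The 81 runs covered 73308 bases, or 1.63% of the interval. Runs of more than 1 probe spanned a median of 1130 bp. The median gap between neighboring runs was 44131.5 bp. The longest gap, 258422 bp, separated runs 52 and 53, and the shortest, 520 bp, separated runs 53 and 54. A run held a median of 11 probes, against 13 on the rest of the chromosome. Many runs were sparse: 11 held a single probe and 8 held a pair, so that 23.5% of runs had fewer than 3 probes, against 6.79% elsewhere on chromosome 4. The remaining 62 runs had at least 3 tested probes and are those for which run means are given.

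The interval was dim in the input channel. On average over the 8 rats, 53.6% ± 4.1 (SD, n = 8) of its probes had input well above background, compared with 65.4% ± 3.9 on the rest of chromosome 4. The share was lower in the interval on all 8 arrays, by 10.8 to 13.2 percentage points. In the bound channel the shares were 40.4% ± 9.8 and 55.5% ± 8.3, again lower on all 8 arrays. The median input signal of the interval lay 0.82 ± 0.10 (SD, n = 8) below that of the other chromosome 4 probes on the log2 scale. Every array shares the same probes, so these comparisons ask only whether the difference at these probes recurs from rat to rat.

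Dim probes were mostly of 1 kind. Probes on this array are 45 to 60 bases long, and 620 of the 947 probes (65.5%) had the full 60 bases, against 45.4% on the rest of the chromosome. Of the 60-base probes in the interval, 19.4% had input above background on all 8 arrays and 54.8% on none. Elsewhere on chromosome 4 the corresponding shares of 60-base probes were 19.6% and 52.3%. Of the 327 shorter probes 88.7% had input above background on all arrays, against 84.7% elsewhere. Bound was above background on all arrays for 8.06% of the 60-base and 55.0% of the shorter probes of the interval, against 9.17% and 63.3% elsewhere. Split by probe length, input detection in the interval lay within a few percentage points of the rest of the chromosome, and bound detection of the shorter probes stayed lower. With 60-base probes alone, the input deficit was 0.15 on the log2 scale in place of 0.82.

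**Figure D1:**
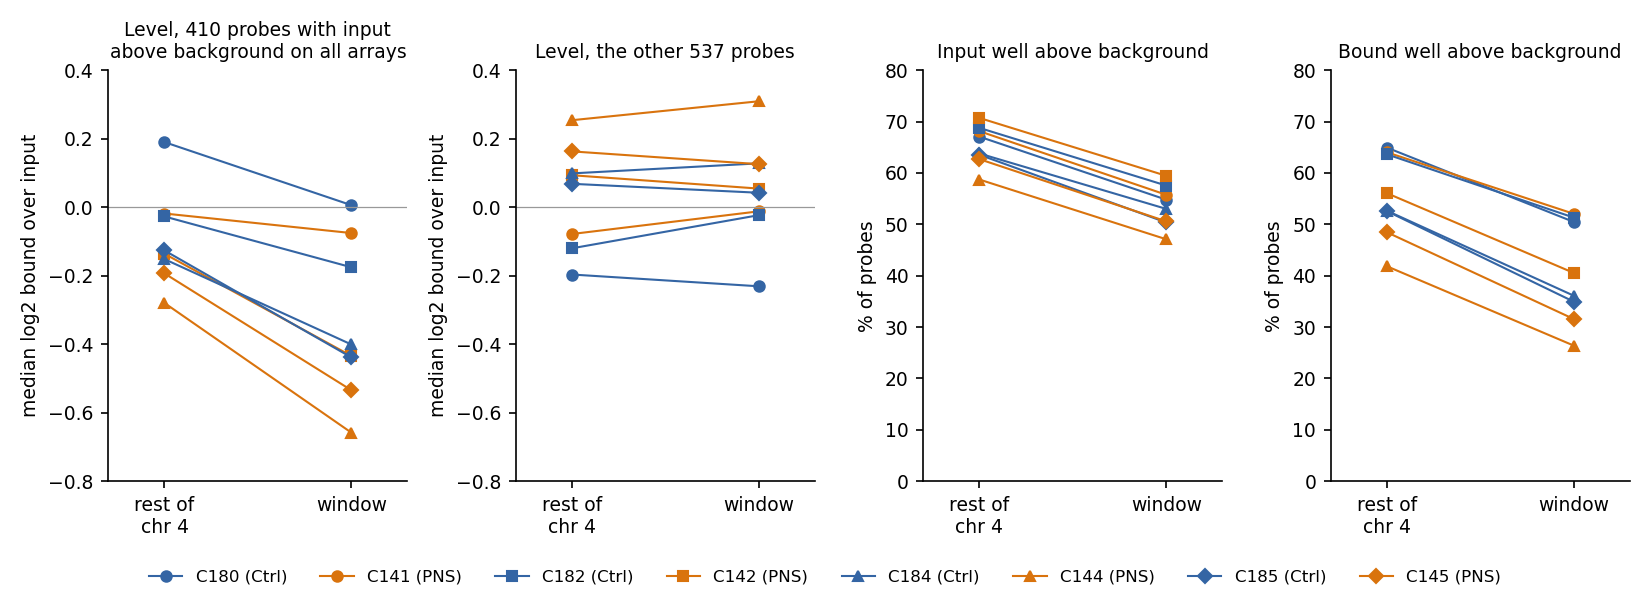
Values of each rat for the interval (window) and for the rest of chromosome 4: median log2 bound over input of the probes with input above background on all arrays, the same of the other probes, and the percent of probes with input or bound spots well above background. Each line is 1 array, Ctrl in blue and PNS in orange. All 8 lines fall toward the window in both detection panels and for the 410 probes with input above background on all arrays. For the other 537 probes 4 rise and 4 fall.

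The level, meaning the quantile-normalized log2 ratio of bound over input, was slightly lower in the interval. The median over its probes was -0.14 ± 0.04 (SD, n = 8), against -0.04 ± 0.01 for the rest of chromosome 4. The difference was between -0.16 and -0.02 on every array, with C141 closest to 0. It was larger among the 410 probes with input above background on all arrays, which had a median of -0.34 ± 0.23 against -0.09 ± 0.14, a difference of -0.25 ± 0.11 that was negative on all 8 arrays. Among the other 537 probes the medians were 0.05 ± 0.15 and 0.04 ± 0.15, and 4 arrays lay higher and 4 lower. The exact two-sided sign-permutation p over 8 arrays was 0.0078125, the smallest possible, for 5 of the 6 measures compared (Benjamini-Hochberg adjusted 0.009375). It was 0.52 for the dim probes.

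Probe length moved with this result as well. Among 60-base probes with input above background on all arrays, the level in the interval was -0.49 ± 0.24 (120 probes) and elsewhere on the chromosome -0.40 ± 0.20, lower on 7 of 8 arrays. Among the shorter ones it was -0.28 ± 0.24 (290 probes) against -0.04 ± 0.13, also lower on 7 of 8. These values by length were chosen after seeing the data, with exact permutation p of 0.023 and 0.016 before adjustment. The interval was not extreme for the chromosome. Among 42 stretches of 4.5 Mb along chromosome 4 it ranked 12th from the lowest level, 14th from the lowest share of input spots above background and 11th from the highest share of 60-base probes.

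Input detection fell toward the middle of the interval and partly returned. In consecutive steps of 500 kb, the share of input spots above background was 80.6, 67.1, 56.7, 55.0, 27.7, 6.0, 28.6, 54.1 and 45.6%. The share of 60-base probes in the same steps was 28.1, 45.2, 65.9, 67.1, 90.0, 96.0, 71.4, 70.0 and 75.7%. The steps held 96, 73, 82, 353, 60, 25, 7, 70 and 181 probes. The fourth step thus held 353 of the 947 probes, and the sixth and seventh were nearly empty. The level was highest in the second step, at 0.37 ± 0.10 (SD, n = 8), and lowest in the eighth, at -0.43 ± 0.25. The ninth stood at -0.38 ± 0.15, which does not differ from the eighth beyond its spread.

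The dimmest stretch, picked out from the values, was runs 49 to 60 at chr4:167179770-167999434, a length of 819665 bp. Its 47 probes included 45 of 60 bases. Input was above background on no array for 39 of them and on all arrays for 2. The share of input spots above background was 7.45%, compared with 56.0% in the rest of the interval, and the median input lay 3.24 ± 0.17 below the array median on the log2 scale. Bound was above background on no array for 42 probes. The level of this stretch, 0.11 ± 0.29, therefore describes mostly spots not well above background in either channel. A_45_P04089593 in run 49, given below, is an exception. At the other end of the range, 4 runs had input above background for every probe on every array, and 11 runs had none on any array.

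**Figure D2:**
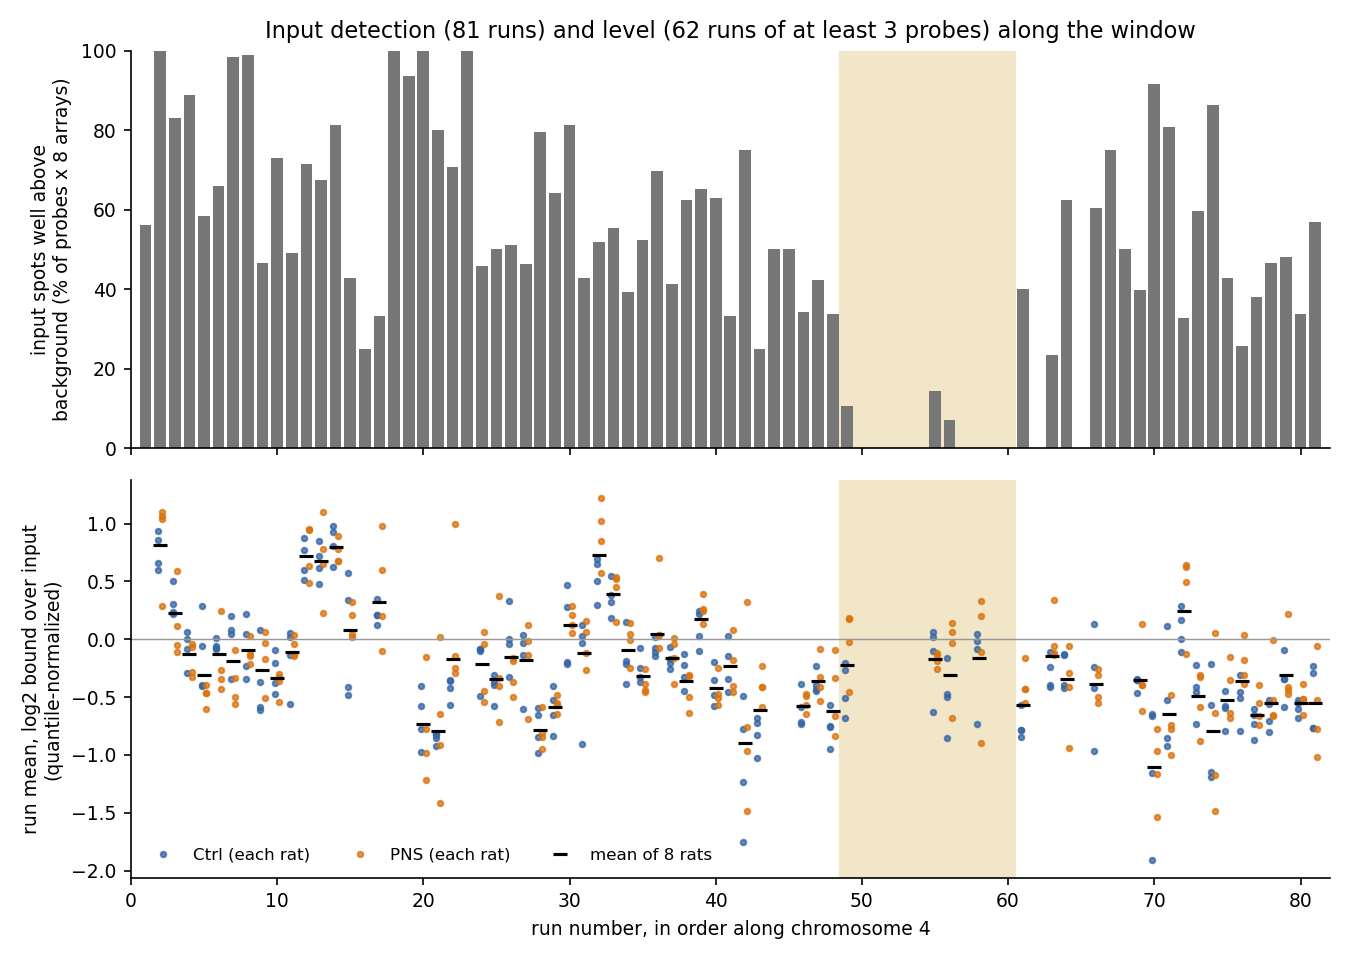
Upper panel: percent of input spots well above background in each of the 81 runs, over all probes and arrays of the run. Lower panel: mean log2 bound over input of the 62 runs with at least 3 tested probes, with each Ctrl rat in blue, each PNS rat in orange and the mean of 8 rats as a bar. The shaded runs 49 to 60 are the dim stretch, where the share was 7.45% over all spots.

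Run levels spread from -1.10 to 0.82, with a median of -0.29, against -0.18 over all 25615 runs of the array with at least 3 tested probes. The SD among run levels was 0.42, compared with 0.52 over the whole array. The SD over the 8 rats within a run had a median of 0.24 and ranged from 0.09 to 0.64, and in 5 of the 62 runs it exceeded the SD among runs. A level above 0 was found in 13 of the 62 runs (21.0%), against 33.6% of all runs.

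The 5 highest runs with at least 5 tested probes lay in 3 places. Run 2, at chr4:165282961-165283875, had the highest level, 0.82 ± 0.28 (SD, n = 8), and all of its 8 probes had input above background on every array. Its values were 0.66, 0.60, 0.86 and 0.94 in the Ctrl and 0.28, 1.06, 1.10 and 1.04 in the PNS rats. C141 was thus the lowest of the 8, and the groups overlapped.

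Runs 12, 13 and 14 are consecutive. They lie at chr4:165603354-165604338, chr4:165653915-165654265 and chr4:165711871-165713047, and their levels were 0.72 ± 0.19, 0.68 ± 0.26 and 0.79 ± 0.13. In run 14, which holds 18 probes, the rats ranged from 0.63 to 0.98 without exception above 0. Run 32, at chr4:166662019-166663246, had a level of 0.72 ± 0.30 over 19 probes. The Ctrl rats lay at 0.50, 0.29, 0.70 and 0.65 and the PNS rats at 0.57, 1.02, 1.22 and 0.85. The PNS mean was higher by 0.38 and 16 of the 19 probes were higher in PNS, but C141 lay among the Ctrl rats. The next run, run 33, at chr4:166670498-166671681, also stood above 0 in all 8 rats, at 0.39 ± 0.16. It was looked up as the neighbor of run 32 after its value had been seen. All 5 of the highest runs lay above 91.9% or more of all runs of the array.

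The 5 lowest runs are likewise given among those with at least 5 tested probes. Run 70, at chr4:168965113-168965925, had a level of -1.10 ± 0.44 over 6 probes, and only 0.39% of all runs on the array were lower. The Ctrl rats measured -0.67, -0.65, -1.91 and -1.16 and the PNS rats -0.78, -1.54, -0.96 and -1.17. C180, C182 and C141, the arrays of low spread, were the 3 rats nearest to 0. Run 74 (chr4:169099941-169100771) stood at -0.80 ± 0.54 and run 77 (chr4:169254804-169256097) at -0.65 ± 0.14. Nearer the start, run 21 (chr4:165986635-165987131) had a level of -0.80 ± 0.40 and run 28 (chr4:166415385-166416614) one of -0.78 ± 0.15. Runs 21, 74 and 28 do not differ in level beyond their spread. Of the smaller runs, run 42 (4 probes) had a level of -0.89 ± 0.64 and run 20 (3 probes) one of -0.73 ± 0.34, both below run 77. In run 21 C141 lay at 0.02 while the other 7 rats lay between -1.42 and -0.65.

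Run 40 was the longest, with 117 probes over 9260 bp (chr4:166794471-166803730). Its level was -0.43 ± 0.14, with the Ctrl rats at -0.35, -0.20, -0.49 and -0.58 and the PNS rats at -0.25, -0.50, -0.57 and -0.47. The groups overlapped, and their means differed by -0.04. Within the run the level was not even. Over the first 6 steps of 1 kb it lay between -0.44 and -0.15, and over the remaining 4 between -1.05 and -0.59. The last step holds only 4 probes. No step separated the groups.

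**Figure D3:**
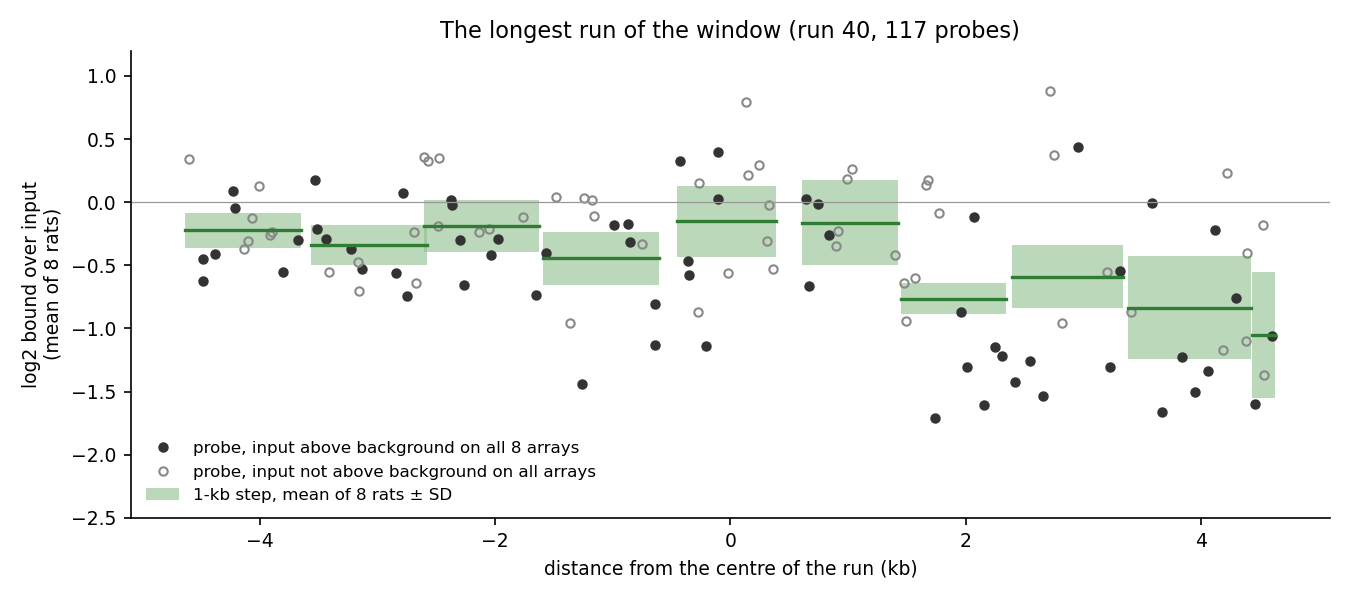
Level of the 117 probes of run 40 by distance in kb from the centre of the run, each as the mean of 8 rats, with filled points for input above background on all arrays. Green bars give the mean of each 1-kb step and the shading its SD over rats. Steps to the left of the centre and just past it lie between -0.44 and -0.15, and the last 4 between -1.05 and -0.59.

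The rats resembled each other across the 62 runs to different degrees, given here as a description over runs that share probes and base composition. Among the 5 arrays of ordinary spread the mean Pearson correlation between rats was 0.88. The 3 arrays of low spread correlated at a mean of 0.56 with those 5 and at 0.59 among themselves. C141 was the least like the others, with a mean of 0.42. Neighboring probes of a run varied together from rat to rat with a mean correlation of 0.19 over 866 pairs, against 0.28 over the rest of the chromosome. Of these pairs 39.4% overlapped in position in the interval and 34.3% elsewhere. Where both probes had input above background on all arrays the mean correlations were 0.50 and 0.48. Among those pairs of the interval it was 0.66 for overlapping and 0.45 for other neighbors.

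Input signal showed how evenly the DNA itself was measured from rat to rat. The SD of a run's mean log2 input over the 8 rats had a median of 0.16 in the interval and 0.17 over all runs. Among runs of at least 5 tested probes the largest were 0.31 in run 61, which exceeded 93.5% of all runs, 0.28 in run 56 and 0.28 in run 13. Of the smaller runs, run 42 (4 probes) had 0.40 and run 17 (3 probes) 0.32. In run 61 (chr4:168250351-168250828) the log2 input relative to the array median was -1.94, -1.70, -1.51 and -1.30 in the Ctrl rats and -2.03, -2.23, -1.64 and -1.50 in the PNS rats. No rat stood apart from the rest. Whether these rats carry all the sequences of the reference genome was not tested.

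The contrast for which the interval was chosen is given here as it stands in the files. Of its 947 probes, 16 (1.69%) had no overlap between the 4 Ctrl and the 4 PNS rats, 11 of them higher and 5 lower in PNS. The background over all tested probes was 3.24%, with 1.54% higher and 1.69% lower. By the first-stage rule (limma p no higher than 0.05 before adjustment, difference no smaller than 0.5) 40 probes were counted, 22 higher and 18 lower in PNS, where the background was 4.86%, with 2.61% higher and 2.25% lower. The splits between directions depended on the setting. The probes without overlap were 10 higher and 9 lower of 947 with loess and 3 and 5 of 410 with input above background on all arrays. In the authors' value table they were 14 and 2 of 780. Those of the first-stage rule were 11 higher and 15 lower with loess, 3 and 9 with input above background on all arrays, and 38 and 18 in the authors' value table. The background shares of probes given here belong to the main setting only. Differences between the group means ran from -1.61 to 2.25 with a median of 0.05, against -0.02 over all tested probes. Of the 62 runs, 3 had means without overlap, all higher in PNS, where the background for runs was 3.23%, with 1.83% higher and 1.40% lower. With loess, and in the authors' value table, 2 were higher and 1 lower. The background shares of runs given here likewise belong to the main setting.

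The largest difference belonged to a single dim probe. A_45_P04084790, the last of the 9 probes of run 22 (chr4:166034510-166034569), had log2 ratios of -1.32, -0.65, -2.60 and -1.28 in the Ctrl rats. In the PNS rats they were 0.90, 0.95, 1.04 and 0.28. All 4 PNS rats lay above all 4 Ctrl rats. The group means were -1.46 ± 0.82 and 0.79 ± 0.35, a difference of 2.25 (SE 0.41), and within the slides it was 2.22, 1.59, 3.64 and 1.56. In the authors' value table the difference was 1.29, and with normexp background correction 0.25. Normexp added an offset of 50 to both channels, which by itself draws the log ratios of dim spots toward 0. The part of this offset in the smaller difference was not tested. At A_45_P04084790 input was well above background on 1 array and bound on none, so the ratio rests on dim spots. The bound spot was at the floor in 1 Ctrl rat and the input spot in 1 PNS rat.

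The other 8 probes of run 22 differed by -0.05 to 0.63, and none separated the groups. The run mean, which includes A_45_P04084790, did, at -0.57, -0.36, -0.42 and -0.36 in Ctrl and 0.99, -0.29, -0.14 and -0.25 in PNS rats. C141 lay far above the other 7 rats, and without it the difference of 0.50 became 0.20. With median centring it was 0.29 and with normexp 0.15. Over the 5 probes of the run with no spot at the floor, which leave out A_45_P04084790, the groups overlapped and the difference was 0.28.

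**Figure D4:**
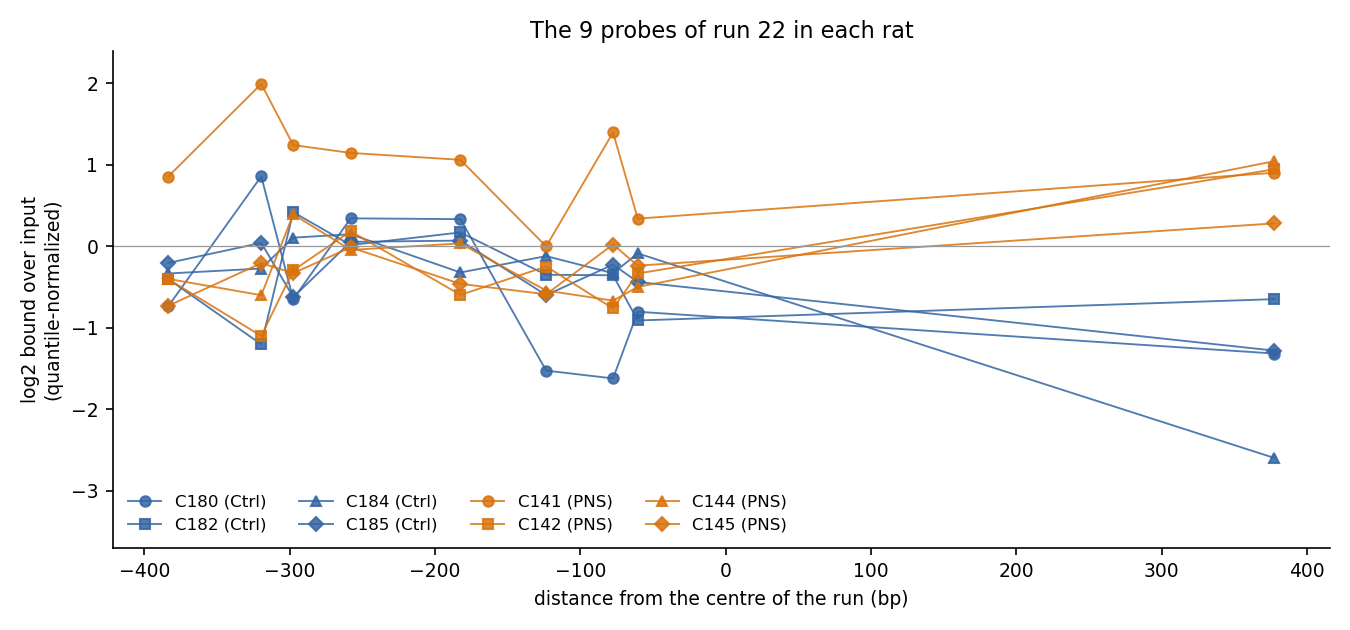
Log2 bound over input of the 9 probes of run 22 in each rat, by distance in bp from the centre of the run, Ctrl in blue and PNS in orange. C141 lies above the other rats over most of the run, and at the last probe alone all 4 PNS rats (0.28 to 1.04) lie above all 4 Ctrl rats (-2.60 to -0.65).

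The third largest difference among the probes without overlap was at a brighter probe. A_45_P04089593 in run 49 (chr4:167180571-167180620), 1 of the 2 bright probes of the dim stretch, had input above background on all 8 arrays and bound on 6. Bound fell short in C184 and C185, the Ctrl rats with the lowest ratios. The Ctrl rats measured -1.14, -1.56, -2.15 and -2.12 and the PNS rats 0.31, -0.37, -0.48 and -0.45. The groups did not overlap. The means were -1.74 ± 0.48 and -0.25 ± 0.37, a difference of 1.49 (SE 0.32), and within the slides it was 1.45, 1.19, 1.67 and 1.67. With normexp it was 0.37. The other 18 probes of run 49 all had 60 bases, and in the run as a whole 10.5% of input spots were above background. The run mean overlapped between the groups.

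Most of the other large differences were at probes with spots at the floor. A_45_P04089195 in run 48 (chr4:167100383-167100442) measured -1.23, -1.64, -0.10 and -0.76 in Ctrl and 2.12, 0.35, 0.39 and 0.37 in PNS rats, a difference of 1.74. It was 2.63 in the authors' value table, 1.10 with loess and 0.39 with normexp, and 0.80 without the 3 arrays of low spread. Its input spot was at the floor in all 4 PNS rats and its bound spot in 3 of them and in all 4 Ctrl rats. The same holds in part for A_45_P18987291 (1.38), A_45_P04086932 (0.96), A_45_P18987294 (0.95), A_45_P18976791 (0.89) and A_45_P04092317 (0.73, or 0.27 without C180). With normexp these 5 differences lay between 0.04 and 0.25. Each of these had at least 5 spots at the floor, and their sizes have no order. Of the 11 probes higher in PNS, 8 had at least 1 spot at the floor, and of the 5 lower in PNS, 0 did.

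Floor spots were common in the interval. Per array, the input spot was at the floor for 15.8 to 24.0% of its probes and the bound spot for 24.4 to 43.5%, compared with 9.96 to 15.4% and 16.2 to 29.4% on the rest of chromosome 4. In all, 529 of the 947 probes had a floor spot on at least 1 array. The 418 others included 8 probes without overlap (1.91%), 3 higher and 5 lower in PNS, against 3.39% of the floor-free probes of the whole array. These are the same 8 that had input above background on all arrays.

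The largest difference downward among them was at A_45_P18979520 in run 41 (chr4:166857246-166857305), where input and bound were above background on all arrays. The Ctrl rats measured -0.67, 0.07, -0.20 and 0.40 and the PNS rats -0.69, -1.04, -0.93 and -0.92. C180 and C141, on the same slide, differed by only -0.02, and the group difference was -0.79 (SE 0.28), or -0.44 with normexp. A_45_P04095765 in run 73 (chr4:169092671-169092730) differed by -0.68 (SE 0.33), with within-slide values of -1.75, -0.06, -0.79 and -0.12. Without C180 it was -0.40, and with normexp -0.14. Just past these 10 largest came A_45_P18979285, the last probe of run 40, with 0.66 (SE 0.28).

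**Figure D5:**
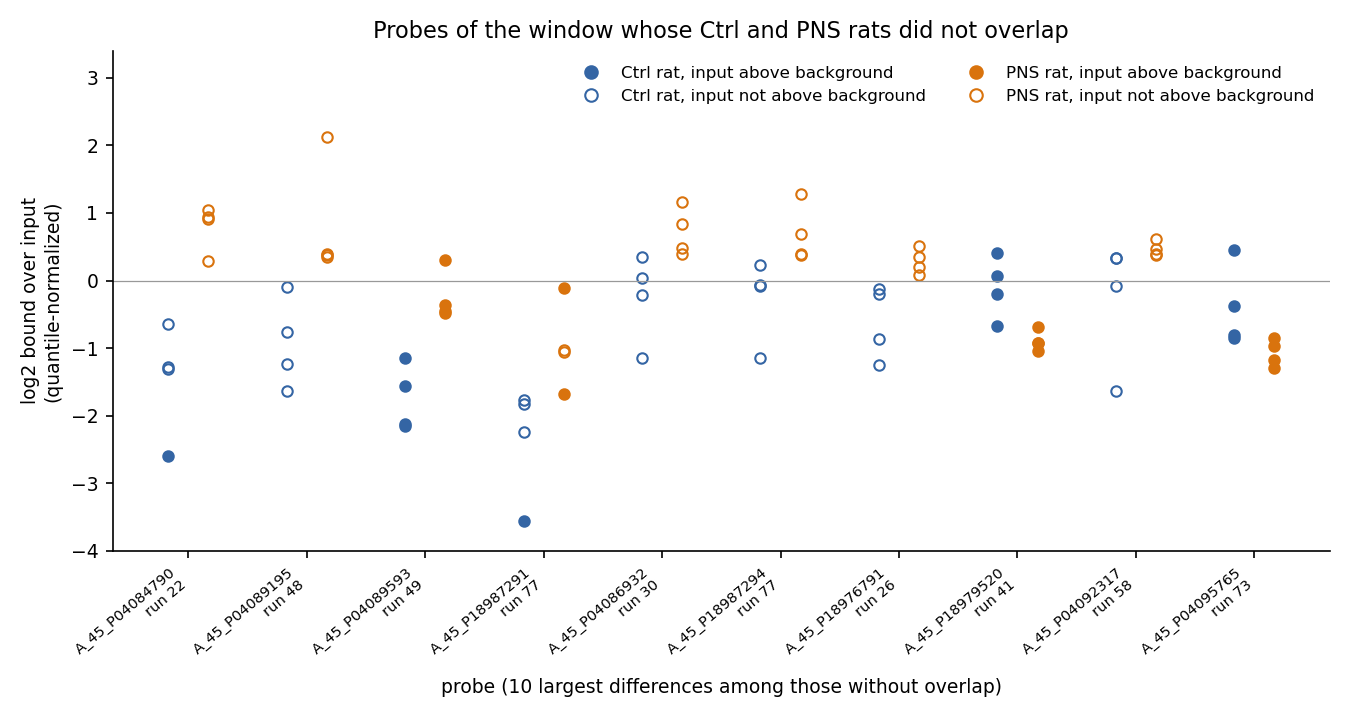
Log2 bound over input in each rat at the 10 probes with the largest differences among those whose groups did not overlap, Ctrl in blue and PNS in orange. Open points have input not well above background. A_45_P04089593, A_45_P18979520 and A_45_P04095765 have filled points in all 8 rats, and A_45_P04084790 in 1.

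The widest downward difference of any probe, -1.61 (SE 0.44, or -0.24 with normexp) at A_45_P18987431 in run 80 (chr4:169395241-169395300), had overlapping groups. The Ctrl rats measured -1.09, 0.88, -0.19 and -0.09 and the PNS rats -2.24, -1.96, -0.93 and -1.79. C180 lay below C144. Its bound spot was at the floor in 3 PNS rats, so that only an upper bound of the ratio was measured there. The other 16 probes of run 80 differed by -0.86 to 0.68, and the mean of the run was even, from -0.68 to -0.39 in all 8 rats.

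The remaining runs without overlap were runs 43 and 61. Run 43 (chr4:166922437-166923565) measured -0.72, -1.02, -0.83 and -0.68 in Ctrl and -0.59, -0.42, -0.23 and -0.41 in PNS rats, a difference of 0.40 with 25% of input spots above background. With loess it was 0.24 and with normexp 0.07. Run 61 measured -0.56, -0.79, -0.78 and -0.85 in Ctrl and -0.16, -0.43, -0.43 and -0.55 in PNS rats, a difference of 0.35 with 40% of input spots above background. It ranged from -0.04 over probes with input above background on all arrays to 0.82 in the authors' value table. Each had 1 floor-free probe. Over the 48 runs with at least 3 floor-free probes, the means of 1 (2.08%) did not overlap, where 2.70% of such runs on the whole array did not. It was run 5 (chr4:165382641-165383220), named after its value had been seen. Over 4 floor-free probes its Ctrl mean was 0.12 and its PNS mean -0.44. The Ctrl rats measured 0.58, 0.03, -0.05 and -0.10 and the PNS rats -0.31, -0.52, -0.56 and -0.35. Over all 6 probes of run 5 the groups overlapped.

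The probes on either side of the bounds are given for reference. The last probe before it, A_45_P04078873 (chr4:164674767-164674818), differed by -0.39 between the groups, and the first inside, A_45_P04080859 (chr4:165225249-165225308), by -0.13. The last inside, A_45_P04096468 (chr4:169398754-169398813), differed by -0.57 and the first after it, A_45_P04096800 (chr4:169558344-169558403), by 0.07. Both probes at the far edge had input above background on no array.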

How the data were processed

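MeDIP-chip was measured in 8 rats. The authors scanned custom Agilent promoter tiling arrays and extracted them with Feature Extraction 10.7.3.1, and the deposited intensity of each channel is background-subtracted and scaled between dyes within an array. The deposited files also give a log10 ratio, and the authors' value table holds quantile-normalized log2 ratios of background-subtracted median signals. Here log2 of processed bound over processed input was quantile-normalized over 375108 probes, after the removal of 5503 control spots and of 405 with a saturation or non-uniformity flag, and fitted with limma 3.58.1 (lmFit, eBayes; R 4.3.3). No probe of the interval was spotted more than once. The interval was compared with the other chromosome 4 probes per array by exact sign permutation (256 patterns). The members, lists and rules were chosen with earlier results of these data known. Probes named are the 10 with the largest differences among those without overlap, the probes of the runs holding the largest difference in each direction, the 5 highest and lowest runs of at least 5 tested probes, the 3 with the largest input SD, and the runs without overlap. Files hold no mean signals, so normexp and the uncorrected input alternative used median signals. Normexp was run with an offset of 50, and the part of this offset in the smaller differences with normexp was not tested. A spot was taken as at the floor where the software flagged it as not positive and significant. No 2 arrays held identical values. Scripts were tested on simulated data. Deviations from the group mean correlated at 0.20, -0.12, 0.18 and 0.20 between arrays sharing a slide, against a mean of -0.03 for different slides. Such deviations cancel within a group, so these values are not independent of each other. The number of arrays limits the precision.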

Additional observations from a re-analysis of the deposited data

Results flagged for a closer look

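In 62 groups of 4 values examined (each named probe, run mean and interval value in Ctrl or PNS), 4 had 1 rat far from the other 3, where chance alone gives about 1 in 20, or 3.1. In all 4 the rat was C141 of the PNS group, one of the 3 arrays of low spread. At A_45_P04089195 it measured 2.12 and the other PNS rats 0.35 to 0.39, all at or near the floor. At A_45_P04089593 it measured 0.31 and the others -0.48 to -0.37. The mean of run 2 was 0.28 in C141 and 1.04 to 1.10 in the others. The mean of run 22 was 0.99 in C141 and -0.29 to -0.14 in the others. The part of the array's low spread in these values was not tested.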

How the results depend on the processing

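The level of the interval stayed below that of the other chromosome 4 probes under every alternative run, from -0.25 to -0.03. Without the 3 arrays of low spread it was -0.12, with an exact p of 0.0625, the smallest that 5 arrays allow. Leaving out each rat in turn gave -0.11 to -0.09. Input and bound detection kept their direction, also without each rat (-12.0 to -11.7 and -15.5 to -14.7 percentage points). The counts between groups depended on the setting. The 16 of 947 probes without overlap became 8 of 410 with input above background on all arrays and 8 of 418 without floor spots. They became 248 without the 3 arrays of low spread, and 24 to 124 without 1 rat, the highest without C141. Fewer rats make overlap rarer by construction. The 3 of 62 runs became 0 with median centring, 5 with normexp, 0 of 50 with input above background on all arrays, and 1 of 48 without floor spots. They became 24 without the 3 arrays, and 3 to 12 without 1 rat, the highest again without C141. The 40 of 947 first-stage probes became 26 with loess and 1 with normexp. The part of the normexp offset of 50 in this smaller count was not tested. The first-stage probes became 12 of 410 with input above background on all arrays and 12 of 418 without floor spots. The latter are 2.87%, against 3.52% of the floor-free probes of the array. The 40 became 22 at a difference of at least 1, 77 without the 3 arrays, and 27 to 89 without 1 rat, of which 89 was without C141. Apart from the floor setting, these counts have no whole-array share beside them here, so they describe the interval alone. With slide as a fixed factor in the model, which pairs the rats by slide, the first-stage probes were 49. Reversed were A_45_P04086932 in the authors' value table (-0.29) and run 61 over probes with input above background on all arrays (-0.040). The cause was not tested. Floor and probe-length settings were chosen after seeing the data. Signal over background limits all values at dim probes, and the sign permutation over 8 arrays cannot go below 0.0078125.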
